A study of Homo sapiens with 9 samples.

Results

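Chromosome 19 carries the densest collection of zinc finger genes in the human genome, and 240 of them are described here in H1975 lung cancer cells. They are the GENCODE 29 protein-coding genes of chromosome 19 whose name is ZNF followed by a number, with at least 90 reads summed over all 9 libraries. The 240 genes are part of 56823 genes with a read sum, and 246 genes met the name rule before the read minimum. By position, 50 lie in band p13, 29 in p12 and 161 in q13. Members were thus chosen by name, place and total reads over all libraries, and their levels are given as a description. ZNF729 with 0 reads, ZNF536 with 1, ZNF98 with 9, ZNF728 with 36, ZNF723 with 38 and ZNF575 with 52 fell below the minimum. ZNF781 with 128 reads and ZNF835 with 154 were the members just inside it. All 240 members passed the filter on low counts and were tested.

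The study placed a doxycycline-inducible repressor, dCas9 fused to a KRAB domain, under a TRE promoter in H1975, an established cell line from a human lung adenocarcinoma with mutant EGFR. One group carried gRNA2 and another gRNA1, both directed at the long noncoding RNA TRIDENT, and the control group carried a non-targeting guide. Each group has 3 libraries of total RNA, prepared after ribosomal RNA removal. All 9 samples grew with G418 and puromycin in tetracycline-free serum and received 4 ug/ml doxycycline for 72 h, so the KRAB fusion was induced in the control libraries too. Whether a line is 1 clone and whether the 3 libraries of a group came from separate cultures is not given in the labels, so p-values measure only the spread between these libraries. The series title names TRIM28, the protein that KRAB domains recruit, and the comparison of each guide with the control asks whether the ZNF genes changed when TRIDENT was targeted.

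Most ZNF proteins of chromosome 19 join a row of C2H2 zinc fingers, which read DNA sequence, to an N-terminal KRAB domain, which binds the corepressor TRIM28. TRIM28 brings the histone methyltransferase SETDB1, HP1 proteins and the NuRD deacetylase complex, and many of the bound sites are transposable elements. The genes arose by repeated tandem duplication and therefore stand in clusters of close relatives. They are generally transcribed at low to moderate levels, and their own coding ends can carry the same repressive marks, placed there in part by ZNF274.

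The start regions of 6 members are shown because the results below turn on them or on their near relatives. ZNF419 and ZNF773 are neighbours in q13 whose RNA was higher with gRNA2, ZNF805 and ZNF814 are called members of the same cluster, ZNF493 is the called member of p12 whose test held best, and ZNF91 is the most abundant gene of p12. ZNF114 was not matched to a start region. Each is the 300 bases from 250 before to 50 after the start, from RefSeq on GRCh38.p14, written 5′ to 3′ on the gene's own strand. Capitals mark matches, on either strand, to GGGCGG, known as the GC-rich SP1 box, to CCAAT, the box bound by NF-Y, to CCGGAAG, a site of ETS factors, and to CACGTG, the E-box.
ZNF419 (chr19:57487500-57487799, + strand): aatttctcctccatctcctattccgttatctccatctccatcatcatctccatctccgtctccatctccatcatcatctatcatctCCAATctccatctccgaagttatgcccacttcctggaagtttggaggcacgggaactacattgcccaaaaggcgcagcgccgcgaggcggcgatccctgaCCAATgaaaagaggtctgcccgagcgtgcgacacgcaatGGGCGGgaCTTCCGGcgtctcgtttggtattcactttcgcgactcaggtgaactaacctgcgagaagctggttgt
ZNF773 (chr19:57499688-57499987, + strand): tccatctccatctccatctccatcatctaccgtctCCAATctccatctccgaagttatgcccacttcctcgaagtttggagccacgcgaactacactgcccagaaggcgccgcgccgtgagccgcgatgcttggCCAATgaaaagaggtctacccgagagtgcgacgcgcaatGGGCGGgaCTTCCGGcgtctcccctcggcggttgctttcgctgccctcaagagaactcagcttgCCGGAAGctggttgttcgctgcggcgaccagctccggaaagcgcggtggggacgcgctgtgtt
ZNF805 (chr19:57240382-57240681, + strand): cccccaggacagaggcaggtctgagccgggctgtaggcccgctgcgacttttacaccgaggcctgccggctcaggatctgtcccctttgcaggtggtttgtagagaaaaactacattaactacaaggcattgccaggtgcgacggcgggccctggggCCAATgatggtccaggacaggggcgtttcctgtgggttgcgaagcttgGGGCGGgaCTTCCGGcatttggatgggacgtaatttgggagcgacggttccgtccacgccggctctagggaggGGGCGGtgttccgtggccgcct
ZNF814 (chr19:57888988-57889287, - strand): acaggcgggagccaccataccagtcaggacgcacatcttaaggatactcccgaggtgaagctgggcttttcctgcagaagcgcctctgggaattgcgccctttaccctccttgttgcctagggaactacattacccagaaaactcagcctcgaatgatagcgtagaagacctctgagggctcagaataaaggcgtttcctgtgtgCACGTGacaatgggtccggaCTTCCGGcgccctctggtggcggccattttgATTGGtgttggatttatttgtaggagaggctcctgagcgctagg
ZNF493 (chr19:21396883-21397182, + strand): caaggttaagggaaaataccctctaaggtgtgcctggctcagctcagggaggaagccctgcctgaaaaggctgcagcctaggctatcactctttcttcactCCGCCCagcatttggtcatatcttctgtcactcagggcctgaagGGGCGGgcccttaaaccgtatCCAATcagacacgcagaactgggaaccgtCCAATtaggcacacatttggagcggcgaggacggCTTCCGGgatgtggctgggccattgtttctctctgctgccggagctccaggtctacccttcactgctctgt
ZNF91 (chr19:23395422-23395721, - strand): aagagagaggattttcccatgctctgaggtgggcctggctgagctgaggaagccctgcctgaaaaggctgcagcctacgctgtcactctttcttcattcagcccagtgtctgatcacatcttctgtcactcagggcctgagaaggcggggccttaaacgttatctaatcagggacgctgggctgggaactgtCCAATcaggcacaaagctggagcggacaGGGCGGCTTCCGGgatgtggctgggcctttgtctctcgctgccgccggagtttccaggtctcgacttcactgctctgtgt
All 6 windows hold CCAAT and the ETS site, and all but that of ZNF814 hold GGGCGG. ZNF493 and ZNF91 were the closest pair, identical at 245 of 306 aligned columns (80.1%). ZNF419 and ZNF773, whose annotated starts lie 12204 bases apart, were identical at 215 of 352 columns (61.1%), and the other 13 pairs ranged from 44.5% to 51.1%.

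Start regions were found for 212 of the 240 members. CCGGAAG was in 45.8% of them, against 10.3% of all 35116 RefSeq start regions of that length. By block the share was 15.2% in p13, 76.9% in p12 and 50% in q13. CCAAT was in 53.8% of member windows and 34.6% of all windows, and it was in 26 of 26 windows of p12. The longer site bound by ZNF143 with THAP11 was in 25 member windows, 24 of them in q13, which is 11.8% of members and 0.78% of all windows. GGGCGG was in 67.5% of member windows and 45% of all. TATAAA, the TATA box, was in 1.89% of member windows and 11.5% of all. The 9 motifs were searched on both strands, and overlapping matches of different motifs were each counted. AAGATGGC (YY1) was in 6.6% of member windows, the palindromic NRF1 site in 2.36%, TGACGTCA (CRE) in 3.3% and CACGTG in 4.25%, against 2.89%, 1.24%, 1.85% and 7.26% of all windows. The median GC content of the windows was 60% in members and 58.7% in all, and the median count of CG pairs was 20 and 14. CCGGAAG and GGGCGG both contain CG, and the part of base composition in their shares was not tested. Members are duplicated relatives, so their windows are not independent. Motif matches are descriptions of these letters, not measured binding sites.

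The proteins share more than the name. A pattern for the KRAB A box was found in the translated coding sequence of 201 of 240 members (83.8%), namely 43 of 50 in p13, 27 of 29 in p12 and 131 of 161 in q13. A KRAB domain that departs from the pattern is missed, so members without a match are not shown to lack it. The number of C2H2 fingers that a pattern search found had a median of 12 and ran from 0 to 36, with ZNF208 (36), ZNF91 (31) and ZNF850 (29) the longest arrays. Transcripts of members were AT-rich, with a median GC content of 42.2% against 48.6% in the 14018 protein-coding genes tested. In p12 the median was 37.5%. Relatedness limits the counts: a median of 11.9% of the 31-base words of a member's transcripts also occurred in another gene, and 62 members shared at least 20%. ZNF177 shared 88.4% of its words, all with the readthrough gene ZNF559-ZNF177, and ZNF320 and ZNF468 shared most of theirs with each other, so reads of such genes could be divided either way and their values are uncertain. Genes on the other strand overlapped 125 members, and the strand setting of the counting is not given in the sources used here, so reads of those pairs may not be told apart.

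Levels per transcript length (TPM, as the authors' files give them, summed over a gene's transcripts) spanned a wide range. Over the 9 libraries the median member had 10.5 TPM, against 11.9 TPM for protein-coding genes tested, and 126 members were above 10 TPM. The median was 21.3 TPM in p12, 7.58 TPM in p13 and 10.3 TPM in q13. ZNF83 in q13, which has 14 fingers and no KRAB pattern, was the most abundant at 284 TPM (256.1 to 319 over the libraries). ZNF841 followed at 182 TPM (169 to 194) without overlapping it. ZNF91 in p12, which represses SVA and LINE-1 retrotransposons in primate cells, came next at 138 TPM (119 to 154), and ZNF114, a short KRAB protein with 3 fingers, after it at 117 TPM (89.5 to 135). The ranges of these last 2 overlapped. The highest of p13 were ZNF506 at 60.7 TPM, ZNF121 at 45.2 TPM and ZNF561 at 31.6 TPM, and after ZNF91 the highest of p12 were ZNF43 at 62.8 TPM and ZNF493 at 59.8 TPM. Within clusters the level differed as well: the 39 genes of q13 between ZNF175 and ZNF331 had a median of 31.2 TPM, against 5.75 TPM in the 26 genes between ZNF565 and ZNF573 and 5.45 TPM in the 22 genes between ZNF576 and ZNF180.

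**Figure D1:**
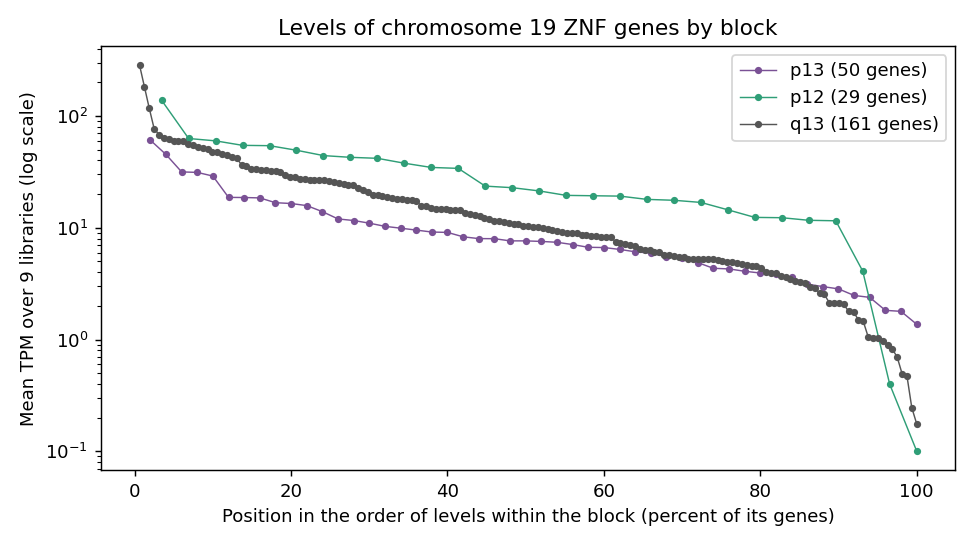
Mean TPM over the 9 libraries (log scale) of each of the 240 genes, ordered from high to low within p13, p12 and q13; the horizontal axis is the position in that order as a percent of the block. The p12 genes lie above the others over most of the order, with a median of 21.3 TPM, and q13 holds both the highest gene, ZNF83, and a long tail of low ones.

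Read totals in matched genes ran from 16704536 to 26129784 per library, and members took 1.25 ± 0.0297% of them with gRNA2, 1.21 ± 0.0215% with gRNA1 and 1.22 ± 0.0247% in the control (SD, n = 3 each). The gene matched to TRIDENT, AC005736.1, had 2.44 ± 0.132 CPM with gRNA2, 1.91 ± 0.163 CPM with gRNA1 and 2.58 ± 0.287 CPM in the control, and passed the test with neither guide, at 0.745-fold (95% interval 0.588 to 0.943, adjusted p = 0.128) for gRNA1 and 0.945-fold (95% interval 0.753 to 1.19, adjusted p = 0.81) for gRNA2. CPM are counts scaled by TMM-adjusted library size. A lower level of the target RNA is therefore not established in these libraries, and the groups are called by their guide. All 6 epithelial markers were above 10 CPM in every library, with summed levels of 2969 to 3119 CPM with gRNA2, 2960.0 to 3076 CPM with gRNA1 and 3119 to 3281 CPM in the control. Of the lung markers, NKX2-1 had 53.2 to 68.4 CPM, SFTPB at most 1.62 CPM, NAPSA at most 4.21 CPM and SFTPC 1 read in all. The 5 blood markers summed to at most 8.87 CPM in any library, and the 6 stromal and endothelial markers to 18.9 to 22.6 CPM with gRNA2, 18.4 to 22.3 CPM with gRNA1 and 16.3 to 19.4 CPM in the control. Of these 6, COL1A1 alone was above 10 CPM, and COL3A1 had 0 reads. The replicate 3 library of gRNA2 had the fewest reads and the strongest deficit of GC-rich genes, a difference of -0.215 between the median log2 deviations of GC-rich and GC-poor genes, while replicate 1 of the control stood at 0.128. In bulk RNA, fewer cells of a kind and less RNA per cell cannot be told apart.

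With gRNA1, few members passed the test. Of 240 members, 1 was higher and 5 were lower than in the control at an adjusted p under 0.05 (edgeR quasi-likelihood test, Benjamini-Hochberg over all 19658 genes tested), which is 2.5% of members against 7.08% of all genes tested. By direction the background was 3.49% higher and 3.58% lower, and 8.55% of the 14018 protein-coding genes tested were called. DESeq2 called 2 higher and 4 lower, and 3 were higher and 3 lower where protein-coding genes alone entered the fit. Of all genes in those fits, DESeq2 called 3.43% of 35716 with any reads and the other fit 8.37% of 14018. The member higher was ZNF814, and those lower were ZNF845, ZNF816, ZNF667, ZNF558 and ZNF701. The median log2 change of members was -0.03, against -0.000345 in all genes, -0.03 in protein-coding genes, -0.05 in other protein-coding genes of chromosome 19 and 0.0019 in the 238 ZNF genes of other chromosomes. It was negative in every alternative and leave-one-out fit, from -0.05 to -0.01. Where counts were corrected for GC content and length, 4 members were higher and 35 lower (39 in all, with 14.1% of all genes called). Over all 19658 genes tested that setting gave 1173 higher and 1595 lower, and the cause was not tested. None of the 6 calls held in every leave-one-out fit. In edgeR 0 members were called without control replicate 2 or without control replicate 3 (29 and 26 at an unadjusted p under 0.05), 1 without gRNA1 replicate 2, 3 each without control replicate 1 or gRNA1 replicate 1, and 9 without gRNA2 replicate 1. In the same order of fits, 3.93%, 3.64%, 3.28%, 4.08%, 3.75% and 8.53% of all genes were called.

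With gRNA2, 8 members were higher and 7 lower than in the control. That is 6.25% of members, against 8.44% of all genes tested (3.69% higher and 4.75% lower) and 10.3% of protein-coding genes tested. With protein-coding genes alone in the fit 11 members were higher and 5 lower, where 10.5% of the 14018 genes were called. DESeq2 called 14 of 240 members and 4.43% of the 35716 genes with any reads, so how members compare with all genes depends on the method. Those higher were ZNF419, ZNF773, ZNF493, ZNF814, ZNF805, ZNF83, ZNF90 and ZNF548, and those lower were ZNF114, ZNF101, ZNF329, ZNF667, ZNF816, ZNF724 and ZNF530. The median log2 change of members was 0.0034 and all genes had 0.0095; the member median lay between -0.01 and 0.03 over the alternatives and leave-one-out fits, so it has no settled sign. With the GC and length correction 16 members were higher and 17 lower, with 16.2% of all genes called (1341 higher and 1846 lower of 19658). The count was 5 without control replicate 3, 6 without gRNA2 replicate 2, 7 without control replicate 2, 8 without gRNA2 replicate 3 and 9 without gRNA1 replicate 2. In the same order of fits, 3.96%, 3.36%, 4.5%, 5.66% and 6.69% of all genes were called. ZNF419, ZNF493 and ZNF114 held in all 10 alternative settings and all 9 leave-one-out fits.

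Set directly against gRNA1, gRNA2 had 12 members higher and 3 lower. The share, 6.25% of members, compares with 6.22% of all genes tested (3.12% higher and 3.1% lower) and 8.03% of protein-coding genes tested. DESeq2 called 13 of 240 members and 3.25% of the 35716 genes with any reads. Those higher were ZNF419, ZNF83, ZNF773, ZNF331, ZNF460, ZNF805, ZNF543, ZNF578, ZNF121, ZNF284, ZNF181 and ZNF581, and those lower were ZNF114, ZNF432 and ZNF776. The median log2 change of members was 0.04 against 0.0039 in all genes, positive in every alternative and leave-one-out fit (0.02 to 0.05). With the GC and length correction 28 were higher and 6 lower, with 13% of all genes called (1299 higher and 1250 lower of 19658). The count was 6 without gRNA1 replicate 2, 7 without gRNA2 replicate 2 and 9 without gRNA1 replicate 1 or without control replicate 3. In the same order of fits, 3.22%, 2.88%, 3.42% and 4.95% of all genes were called. ZNF114, ZNF83, ZNF460 and ZNF419 held in all 10 alternative settings and all 9 leave-one-out fits. The 3 comparisons share libraries, so they are not independent.

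**Figure D2:**
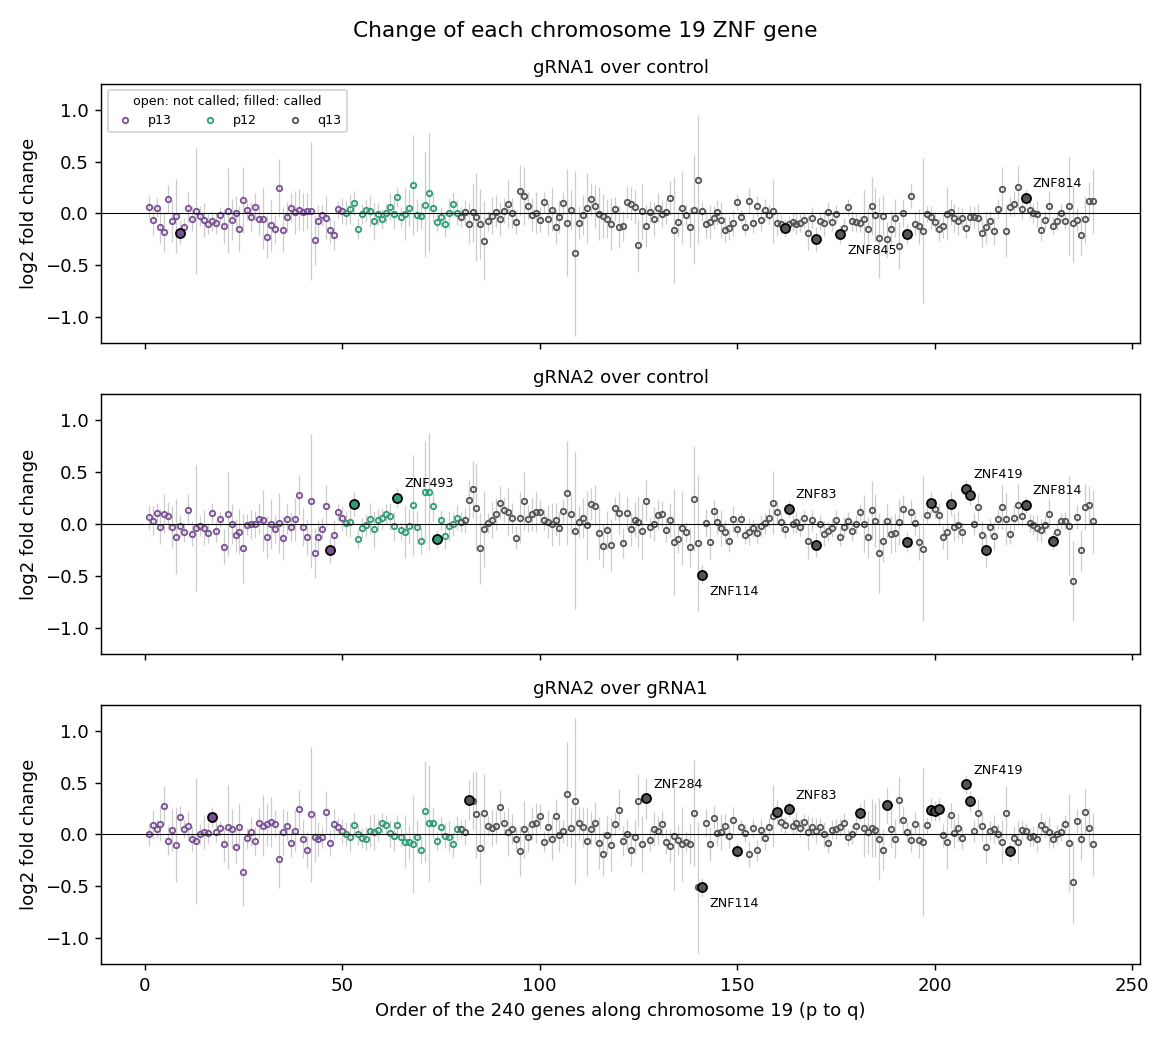
Log2 fold change of each of the 240 genes, in order along chromosome 19, for gRNA1 over control, gRNA2 over control and gRNA2 over gRNA1; vertical lines are 95% intervals, filled points passed an adjusted p of 0.05 and open points did not. Most genes lie close to 0, ZNF114 is the lowest filled point of the lower 2 panels and ZNF419 the highest.

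For most members the data bound the change tightly. The 95% interval of the fold lay wholly within 0.8 to 1.25 for 186 members (77.5%) with gRNA1, against 46.7% of all genes, and for 175 (72.9%) with gRNA2, against 45.9%. Between the guides it did so for 181 (75.4%), against 47.3%. All members are protein-coding, and among protein-coding genes tested the shares were 61.6% with gRNA1, 60.8% with gRNA2 and 61.8% between the guides. Among the 80 most abundant members 95% had such an interval with gRNA1 and 92.5% with gRNA2, while among the 80 least abundant these shares were 48.8% and 41.2%. Estimated changes beyond 1.25-fold were found for 2 members with gRNA1, 4 with gRNA2 and 11 between the guides. At an unadjusted p under 0.05 there were 41 members with gRNA1 (17.1%, against 22% of all genes), 51 with gRNA2 (21.2%, against 23.3%) and 46 between the guides (19.2%, against 19.6%).

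In p13, 1 of 50 members passed the test in each comparison, a different one each time, which is 2% against 8.44% of all genes with gRNA2, 7.08% with gRNA1 and 6.22% between the guides. ZNF558, which represses SPATA18 in human neural progenitors, had 43.6, 46.5 and 45.2 CPM in the gRNA2 libraries, 42.7, 39.3 and 38.8 CPM in the gRNA1 libraries and 44.1, 46.2 and 46.9 CPM in the control libraries. All gRNA1 values lay below all control values, at 0.88-fold (95% interval 0.815 to 0.949, adjusted p = 0.043), while gRNA2 overlapped the control at 0.986-fold (adjusted p = 0.861). The call was kept in 4 of 10 settings and 3 of 9 leave-one-out fits, with adjusted p up to 0.181, and up to 0.232 over the settings.

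ZNF101, a KRAB protein with 9 fingers, had 30.4, 32.7 and 31 CPM in the gRNA2 libraries, 33.4, 34.7 and 31.9 CPM in the gRNA1 libraries and 34.7, 38.9 and 38.3 CPM in the control libraries. With gRNA2 it fell to 0.841-fold (95% interval 0.771 to 0.917, adjusted p = 0.0172) of the control with no overlap, and gRNA1 stood between them and overlapped both, at 0.893-fold (adjusted p = 0.108). That call was kept in 9 of 10 settings and 7 of 9 leave-one-out fits (adjusted p up to 0.0962). ZNF121, with 9 fingers and no KRAB pattern, had 247, 262 and 265 CPM in the gRNA2 libraries, 227, 240.0 and 219 CPM in the gRNA1 libraries and 229, 249.8 and 241 CPM in the control libraries. It was higher with gRNA2 than with gRNA1 in every library, at 1.13-fold (95% interval 1.05 to 1.2, adjusted p = 0.0354), and overlapped the control with both guides. This call was kept in 9 of 10 settings and 2 of 9 leave-one-out fits (adjusted p up to 0.179). The most abundant p13 genes, ZNF506 and ZNF561, passed no test, with ZNF506 at 1.08-fold (adjusted p = 0.0897) and ZNF561 at 0.952-fold (adjusted p = 0.405) for gRNA2 over control. Over the whole block the median log2 change was -0.04 with gRNA1, -0.02 with gRNA2 and 0.03 between the guides.

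In p12, 3 of 29 members changed with gRNA2, 0 with gRNA1 and 0 between the guides by edgeR (2 and 2 at an unadjusted p under 0.05), where DESeq2 called 2, 1 and 0. Of the 35716 genes with any reads, DESeq2 called 4.43%, 3.43% and 3.25% in that order. The share with gRNA2, 10.3%, is near the 8.44% of all genes tested and the 10.3% of protein-coding genes tested. ZNF493 had 158, 171 and 170.4 CPM in the gRNA2 libraries, 161, 159 and 148 CPM in the gRNA1 libraries and 136, 139 and 144 CPM in the control libraries. The gRNA2 libraries lay above all control libraries at 1.19-fold (95% interval 1.11 to 1.27, adjusted p = 0.00369), and the gRNA1 libraries were also above the control but missed the threshold, at 1.11-fold (95% interval 1.04 to 1.19, adjusted p = 0.0501). The gap between the guides was 1.07-fold (adjusted p = 0.257), so a difference between them was not shown. ZNF493 has 18 fingers, a KRAB pattern and 14.1% shared words, and it lies at 21397119 to 21427573 (hg38, + strand).

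ZNF90 had 64, 71 and 72.1 CPM in the gRNA2 libraries, 66.6, 65.5 and 61.9 CPM in the gRNA1 libraries and 57.7, 62 and 61.3 CPM in the control libraries. It was higher with gRNA2 at 1.14-fold (95% interval 1.06 to 1.23, adjusted p = 0.0366) without overlap, yet 31% of its words are shared, a part of them with the overlapping antisense gene AC011447.3. The call was kept in 7 of 10 settings and 3 of 9 leave-one-out fits (adjusted p up to 0.179). ZNF724 averaged 55.9 ± 0.533 CPM with gRNA2 and 61.8 ± 2.09 CPM in the control (SD, n = 3 each), at 0.904-fold (95% interval 0.851 to 0.961, adjusted p = 0.0414). As 61.1% of its words are shared, 45.1% with the overlapping gene AC092329.3, its reads cannot be assigned with certainty, and the call was kept in 3 of 10 alternative settings and 2 of 9 leave-one-out fits.

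ZNF676, with 14 fingers and a KRAB pattern, had the lowest unadjusted p of the block between the guides and passed no test. It had 33.1, 33.6 and 35.6 CPM in the gRNA2 libraries, 40.5, 37.1 and 35.3 CPM in the gRNA1 libraries and 37.1, 39.8 and 37.6 CPM in the control libraries. All gRNA2 libraries were below all control libraries, at 0.891-fold (95% interval 0.817 to 0.972, adjusted p = 0.0975), while gRNA2 overlapped gRNA1, at 0.904-fold (95% interval 0.829 to 0.986, adjusted p = 0.181), and gRNA1 stood at 0.985-fold (95% interval 0.904 to 1.07, adjusted p = 0.873) of the control. Of its words 24.2% are shared, most often with ZNF208.

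ZNF91 and ZNF93, the repressors of SVA and LINE-1 elements, passed no test. ZNF91 had 456, 511 and 513 CPM in the gRNA2 libraries, 469, 476 and 460.4 CPM in the gRNA1 libraries and 455, 495 and 489.5 CPM in the control libraries, with overlap among all groups, and stood at 1.03-fold (95% interval 0.96 to 1.1, adjusted p = 0.664) with gRNA2 and 0.976-fold (95% interval 0.912 to 1.05, adjusted p = 0.718) with gRNA1. ZNF93 stood at 1.01-fold (95% interval 0.931 to 1.09, adjusted p = 0.939) with gRNA2 and 1.00-fold (95% interval 0.928 to 1.08, adjusted p = 0.976) with gRNA1. Of ZNF43, the second most abundant p12 gene, the replicate 1 library of gRNA2 had 142 CPM and the other two 181 and 179 CPM, and the gene stood at 0.983-fold (95% interval 0.874 to 1.11, adjusted p = 0.896) with gRNA2. The block's median log2 change was 0.0045 with gRNA1, 0.0099 with gRNA2 and -0.000165 between the guides. By library, the block's median was lowest in replicate 1 of gRNA2 (-0.05), replicate 3 of gRNA1 (-0.04) and replicate 1 of the control (-0.05). In the same 3 libraries GC-rich genes stood above GC-poor ones, by 0.091, 0.023 and 0.128, and the part of GC content in the block's medians was not tested.

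**Figure D3:**
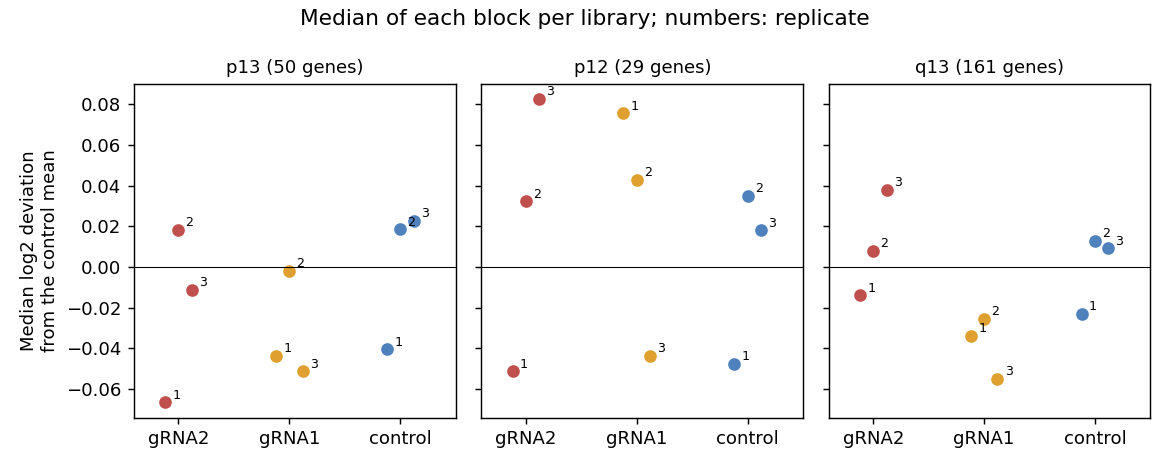
Median over the genes of p13, p12 and q13 of the log2 deviation of each library from the mean of the control libraries, by group, with the replicate number beside each point. In q13 the 3 gRNA1 libraries (-0.034, -0.025 and -0.055) lie below the other 6, though replicate 1 of the control (-0.023) nearly meets them. In p12 each group spreads from below 0 to above it.

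In q13, gRNA2 gave 6 members higher and 5 lower than the control, gRNA1 gave 1 higher and 4 lower, and gRNA2 over gRNA1 gave 11 higher and 3 lower, of 161. These are 6.83%, 3.11% and 8.70% of q13 members, against 8.44%, 7.08% and 6.22% of all genes tested. Of protein-coding genes tested, 10.3%, 8.55% and 8.03% were called. The largest called change of all belonged to ZNF114, which lies apart from other members at 48270102 to 48287608 (hg38, + strand). It had 184, 193 and 194 CPM in the gRNA2 libraries, 262, 264 and 287 CPM in the gRNA1 libraries and 259.7, 269.6 and 272 CPM in the control libraries. All gRNA2 libraries were below all others, at 0.712-fold (95% interval 0.669 to 0.758, adjusted p = 1.15e-05) of the control and 0.702-fold (95% interval 0.66 to 0.747, adjusted p = 9.12e-06) of gRNA1, whereas gRNA1 overlapped the control at 1.01-fold (95% interval 0.954 to 1.08, adjusted p = 0.827). Both calls held in every alternative and leave-one-out fit, with adjusted p up to 2.45e-04 and 3.03e-04 against the control. Only 8.51% of its words are shared, but the antisense gene ZNF114-AS1 overlaps it.

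**Figure D4:**
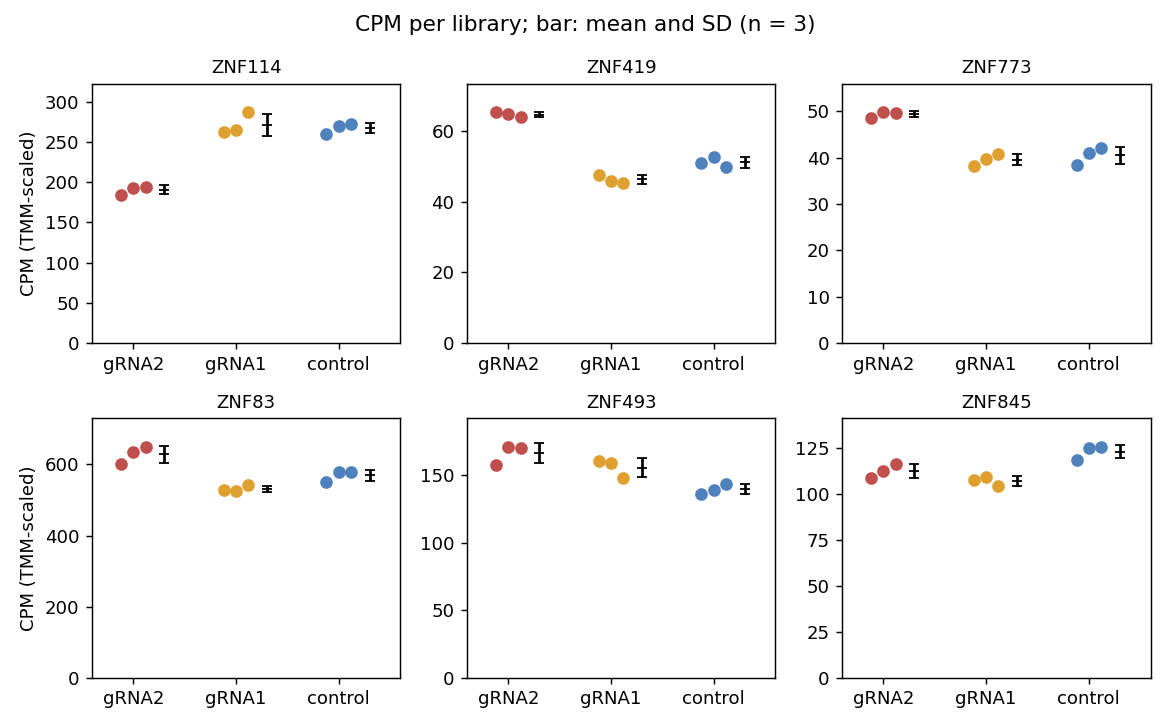
CPM (TMM-scaled, linear axis from 0) of 6 members in each of the 9 libraries, with the mean and SD of each group of 3 beside the points. ZNF114 is lower and ZNF419, ZNF773 and ZNF83 are higher in all gRNA2 libraries than in the other 6, ZNF493 is above the control with both guides, and ZNF845 is below it with both.

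The telomeric cluster of 43 genes from ZNF264 to ZNF446 (57191500 to 58481230) had 5 members higher and 2 lower with gRNA2 than in the control, where all 240 members gave 8 and 7 and 3.69% and 4.75% of all genes were higher and lower. Whether the calls gather there was not tested. ZNF419, known as the source of the minor histocompatibility antigen ZAPHIR, had 65.3, 64.7 and 64.1 CPM in the gRNA2 libraries, 47.7, 46 and 45.3 CPM in the gRNA1 libraries and 51, 52.8 and 49.7 CPM in the control libraries. The gRNA2 libraries lay above all others, at 1.26-fold (95% interval 1.19 to 1.35, adjusted p = 2.73e-04) of the control and 1.4-fold (95% interval 1.31 to 1.49, adjusted p = 1.65e-05) of gRNA1. The gRNA1 libraries were all below the control but missed the threshold, at 0.904-fold (adjusted p = 0.0587).

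ZNF773, the next gene, had 48.6, 49.7 and 49.7 CPM in the gRNA2 libraries, 38.3, 39.6 and 40.8 CPM in the gRNA1 libraries and 38.5, 40.9 and 42.1 CPM in the control libraries. It was higher with gRNA2 in every library, at 1.22-fold (95% interval 1.13 to 1.31, adjusted p = 0.00241) of the control and 1.25-fold (95% interval 1.16 to 1.34, adjusted p = 0.00107) of gRNA1, and overlapped between gRNA1 and control. Both calls held in every leave-one-out fit, but with an offset for transcript length the adjusted p became 0.348 and 0.0932. The pair share 11.8% of their words with each other and both overlap AC003005.1 on the same strand, so part of their reads could be exchanged. Of the 4 start regions printed above from this cluster, theirs were the pair most alike. Those 4 were printed because their genes were called, and whether likeness goes with a shared change was not tested. The start regions of ZNF493 and ZNF91 in p12 were more alike (80.1%), and only ZNF493 of that pair passed a test.

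ZNF805 had 40.6, 41.6 and 44 CPM in the gRNA2 libraries, 36.5, 34.9 and 35.2 CPM in the gRNA1 libraries and 35.5, 37.8 and 36.1 CPM in the control libraries. With gRNA2 it lay above both other groups, at 1.15-fold (95% interval 1.07 to 1.24, adjusted p = 0.0216) of the control and 1.18-fold (95% interval 1.1 to 1.27, adjusted p = 0.00999) of gRNA1, kept in 9 and 9 of 10 settings and in 5 and 7 of 9 leave-one-out fits. ZNF548 was 1.14-fold (95% interval 1.05 to 1.24, adjusted p = 0.0429) of the control with gRNA2, kept in 7 of 10 settings and 2 of 9 leave-one-out fits.

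ZNF814 was the one member called higher with both guides. It had 109.8, 109 and 107 CPM in the gRNA2 libraries, 105, 109 and 104 CPM in the gRNA1 libraries and 95.8, 94.8 and 96.4 CPM in the control libraries, so that neither guide overlapped the control, at 1.14-fold (95% interval 1.08 to 1.2, adjusted p = 0.00668) with gRNA2 and 1.11-fold (95% interval 1.05 to 1.17, adjusted p = 0.0266) with gRNA1. It shares 33.3% of its words, 18.9% with ZNF587, which lies across it on the other strand, and its gRNA1 call was kept in 8 of 10 settings and 4 of 9 leave-one-out fits (adjusted p up to 0.126).

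A further 2 members of this cluster were higher with gRNA2 than with gRNA1 while missing the threshold against the control. ZNF460 had 229.6, 235 and 236 CPM in the gRNA2 libraries, 202, 209 and 188 CPM in the gRNA1 libraries and 201, 218 and 213 CPM in the control libraries, at 1.17-fold (95% interval 1.1 to 1.25, adjusted p = 0.00655) of gRNA1 and 1.11-fold (adjusted p = 0.0512) of the control. ZNF543 averaged 34.8 ± 1.18 CPM with gRNA2 and 29.4 ± 0.927 CPM with gRNA1 (SD, n = 3 each), at 1.18-fold (95% interval 1.09 to 1.28, adjusted p = 0.0134), kept in 9 of 10 settings and 7 of 9 leave-one-out fits. In both genes the gRNA2 libraries lay above all gRNA1 libraries, and in ZNF460 above the control libraries too.

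The same cluster held members that moved the other way. ZNF329, without a KRAB pattern, had 56.9, 59.9 and 58.1 CPM in the gRNA2 libraries, 60.5, 60.4 and 59.2 CPM in the gRNA1 libraries and 65.3, 65 and 65.2 CPM in the control libraries, below the control with no overlap for either guide, and it passed for gRNA2 at 0.895-fold (95% interval 0.844 to 0.948, adjusted p = 0.0216) and not for gRNA1 at 0.921-fold (adjusted p = 0.087). The gRNA2 call was kept in 8 of 10 settings and 3 of 9 leave-one-out fits. ZNF530 averaged 17 ± 0.38 CPM with gRNA2 and 20.2 ± 2.07 CPM in the control (SD, n = 3 each), at 0.839-fold (95% interval 0.752 to 0.935, adjusted p = 0.0473), kept in 4 of 10 settings and 1 of 9 leave-one-out fits. Counted over protein-coding transcripts alone, its log2 change was 1.05, in the opposite direction, and did not pass. ZNF776 averaged 49.6 ± 1.06 CPM with gRNA2 and 55.5 ± 1.29 CPM with gRNA1 (SD, n = 3 each), at 0.893-fold (95% interval 0.838 to 0.952, adjusted p = 0.037) and kept in 4 of 10 settings and 1 of 9 leave-one-out fits, with adjusted p up to 0.722 over the settings. Over all 43 genes the median log2 change was 0.02 with gRNA2, -0.04 with gRNA1 and 0.03 between the guides.

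The cluster of 39 genes from ZNF175 to ZNF331 (51571298 to 53580269) is the most abundant in q13, and 38 of its 39 genes have the KRAB pattern. With gRNA1 its median log2 change was -0.08, with 8 of 39 changes above 0, and with gRNA2 it was -0.02. With gRNA1, 3 were called lower (7.69%), where 3.58% of all genes and 685 of 14018 protein-coding genes were lower. A low gRNA1 median was not particular to this cluster. It was -0.11 in the 16 genes from ZNF628 to ZNF835 (3 above 0) and -0.06 in the 13 from ZNF414 to ZNF846 (2 above 0). In the clusters of 22 to 29 genes it lay between -0.02 and 0.0045. The median deviation per library of the ZNF175 to ZNF331 cluster was -0.0714, -0.0878 and -0.0728 with gRNA1. These lay below the range of -0.0525 to 0.0454 with gRNA2 and of -0.0324 to 0.0192 in the control. In this cluster ZNF845, with 26 fingers, had 109, 112 and 116 CPM in the gRNA2 libraries, 108, 109 and 104 CPM in the gRNA1 libraries and 118, 125 and 125 CPM in the control libraries. It fell with gRNA1 to 0.871-fold (95% interval 0.819 to 0.925, adjusted p = 0.00875) of the control, without overlap and in all 10 alternative settings, and was also below the control with gRNA2, where it missed the threshold at 0.914-fold (adjusted p = 0.0659). Without control replicate 2 or without control replicate 3 its gRNA1 call was lost, with adjusted p up to 0.0651.

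ZNF816 had 34.3, 37.6 and 37.1 CPM in the gRNA2 libraries, 34.5, 35.7 and 35.7 CPM in the gRNA1 libraries and 39.5, 42 and 44 CPM in the control libraries. Both guides were below the control without overlap, at 0.866-fold (95% interval 0.799 to 0.938, adjusted p = 0.0292) with gRNA2 and 0.844-fold (95% interval 0.778 to 0.915, adjusted p = 0.0142) with gRNA1, kept in 7 and 9 of 10 settings and in 4 and 5 of 9 leave-one-out fits. It shares 27.3% of its words, 9.48% with the readthrough gene ZNF816-ZNF321P. ZNF701 averaged 78.4 ± 1.91 CPM with gRNA1 and 86.4 ± 1.21 CPM in the control (SD, n = 3 each), at 0.907-fold (95% interval 0.856 to 0.962, adjusted p = 0.0465), kept in 1 of 9 leave-one-out fits and 2 of 10 settings.

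ZNF83, the most abundant member, had 601, 636 and 649 CPM in the gRNA2 libraries, 527, 526 and 541 CPM in the gRNA1 libraries and 552, 579 and 578 CPM in the control libraries. The gRNA2 libraries stood above all others, at 1.1-fold (95% interval 1.05 to 1.16, adjusted p = 0.024) of the control and 1.18-fold (95% interval 1.12 to 1.25, adjusted p = 9.05e-04) of gRNA1, and the gRNA1 libraries lay below the control without passing, at 0.933-fold (adjusted p = 0.109). The call against gRNA1 held in every fit, and that against the control was kept in 8 of 10 settings and 3 of 9 leave-one-out fits (adjusted p up to 0.143). ZNF331, an imprinted gene, had 75.1, 74.3 and 77.3 CPM in the gRNA2 libraries, 64.6, 64.7 and 66.6 CPM in the gRNA1 libraries and 71.2, 68.8 and 69.7 CPM in the control libraries, so that gRNA2 was highest and gRNA1 lowest with no overlap among the 3 groups. Between the guides it stood at 1.16-fold (95% interval 1.09 to 1.22, adjusted p = 0.00519), and against the control at 1.08-fold (adjusted p = 0.089) with gRNA2 and 0.935-fold (adjusted p = 0.159) with gRNA1.

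ZNF432, reported to act in DNA repair, had 144, 148 and 149 CPM in the gRNA2 libraries, 165, 168 and 159.5 CPM in the gRNA1 libraries and 147, 154 and 154 CPM in the control libraries. All gRNA2 libraries were below all gRNA1 libraries, at 0.895-fold (95% interval 0.847 to 0.946, adjusted p = 0.0196), kept in 8 of 10 settings and 5 of 9 leave-one-out fits, and gRNA2 overlapped the control. It overlaps ZNF841 on the same strand, and ZNF841, the second most abundant member, did not pass, at 1.03-fold (95% interval 0.985 to 1.08, adjusted p = 0.418) with gRNA2 and 0.98-fold (95% interval 0.936 to 1.03, adjusted p = 0.623) with gRNA1. ZNF578 was higher with gRNA2 than with gRNA1 at 1.16-fold (95% interval 1.07 to 1.26, adjusted p = 0.035) and kept in 5 of 10 settings and 3 of 9 leave-one-out fits.

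Elsewhere in q13, single genes passed. ZNF667 had 41.4, 42 and 40.1 CPM in the gRNA2 libraries, 41.2, 40.4 and 39.9 CPM in the gRNA1 libraries and 45.3, 48.3 and 46.1 CPM in the control libraries. Both guides lay below the control without overlap, at 0.885-fold (95% interval 0.828 to 0.947, adjusted p = 0.0274) with gRNA2 and 0.87-fold (95% interval 0.813 to 0.931, adjusted p = 0.0163) with gRNA1, kept in 7 and 8 of 10 settings and in 5 and 6 of 9 leave-one-out fits. An antisense gene, ZNF667-AS1, overlaps it, and over the alternative settings the adjusted p rose as high as 0.419 with gRNA2 and 0.525 with gRNA1. ZNF581, with 4 fingers and no KRAB pattern, averaged 26.4 ± 1.72 CPM with gRNA2 and 21.8 ± 2.35 CPM with gRNA1 (SD, n = 3 each). It was higher with gRNA2 than with gRNA1 at 1.22-fold (95% interval 1.08 to 1.36, adjusted p = 0.0458), kept in 7 of 10 settings and 2 of 9 leave-one-out fits.

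The last 2 members higher with gRNA2 than with gRNA1 were ZNF181 and ZNF284. ZNF181 averaged 9.14 ± 0.444 CPM with gRNA2 and 7.23 ± 0.0577 CPM with gRNA1 (SD, n = 3 each), at 1.26-fold (95% interval 1.1 to 1.44, adjusted p = 0.0453), kept in 4 of 10 settings and 2 of 9 leave-one-out fits. ZNF284 had 29.3, 27.6 and 34.8 CPM in the gRNA2 libraries, 24.5, 25.8 and 21.2 CPM in the gRNA1 libraries and 24, 28.4 and 25.4 CPM in the control libraries. It stood at 1.27-fold (95% interval 1.11 to 1.46, adjusted p = 0.0411) of gRNA1, kept in 7 of 10 settings and 3 of 9 leave-one-out fits, and 48.4% of its words are shared, 43.5% with AC067968.1, which overlaps it on the same strand. Genes with few reads gave wide intervals: ZNF781, just inside the read minimum, stood at 0.765-fold (95% interval 0.442 to 1.32, adjusted p = 0.592) with gRNA1, and ZNF837, with 336 reads in all, at 0.683-fold (95% interval 0.522 to 0.893, adjusted p = 0.0768) with gRNA2.

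For 7 members listed for a studied role, folds were mostly near 1. ZNF274, which places repressive marks on ZNF gene ends, stood at 0.95-fold (95% interval 0.892 to 1.01, adjusted p = 0.326) with gRNA2 and 0.951-fold (95% interval 0.892 to 1.01, adjusted p = 0.341) with gRNA1. ZNF417 and ZNF587, close relatives that repress HERV-K elements, stood at 0.992-fold (95% interval 0.929 to 1.06, adjusted p = 0.914) and 1.01-fold (95% interval 0.948 to 1.07, adjusted p = 0.918) with gRNA2, and 50% of the words of ZNF417 are shared. ZNF473, a factor in histone RNA processing, stood at 1.01-fold (95% interval 0.915 to 1.1, adjusted p = 0.967) with gRNA2 and 0.931-fold (95% interval 0.846 to 1.02, adjusted p = 0.381) with gRNA1. ZNF224, a KRAB repressor, stood at 0.977-fold (95% interval 0.908 to 1.05, adjusted p = 0.735) with gRNA2, ZNF146, which is made almost wholly of zinc fingers, at 1.01-fold (95% interval 0.943 to 1.08, adjusted p = 0.923), and ZNF444, a SCAN domain protein, at 0.943-fold (95% interval 0.828 to 1.07, adjusted p = 0.612). None of these 7 passed in any comparison. ZNF91, ZNF93 and ZNF331 were also listed for a known role. ZNF91 and ZNF93 passed no test, while ZNF331 passed between the guides, as given above. Other members whose reported role is given above passed too, among them ZNF558, ZNF432 and ZNF419.

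Members were also counted by sequence properties. With gRNA2, 13 of 201 with the KRAB pattern and 2 of 39 without it passed, which is 6.47% and 5.13%, both below the 8.44% of all genes tested. With gRNA1 the counts were 6 and 0 by edgeR (3 of the 39 at an unadjusted p under 0.05, and 0 by DESeq2), against 7.08% of all genes. Between the guides they were 12 (5.97%) and 3 (7.69%), against 6.22%. The median log2 change with gRNA1 was -0.03 with the pattern and -0.06 without it. The median standard error of the log2 change was 0.059 with the pattern and 0.099 without it. Members without a match may still carry a KRAB domain, so this is a split by pattern only. By GC content, the median with gRNA1 was 0.0017 in the 80 most AT-rich members, -0.04 in the next 80 and -0.06 in the 80 most GC-rich, and with gRNA2 it was 0.03, 0.0036 and -0.02. With the GC and length correction the member medians were -0.03, -0.01 and 0.03 with gRNA1, with gRNA2 and between the guides.

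Partners of KRAB proteins and other repressive chromatin factors were also measured. The list held 23 genes, for the TRIM28 pathway and for wider factors of repressive chromatin and DNA methylation. Of these 21 were tested and EHMT2 and DAXX were not. EHMT2 had 0 CPM in every library, and DAXX had 0.986 CPM in replicate 1 of gRNA1 and 0 elsewhere. Why their reads were absent was not tested. With gRNA2, 8 of the 21 were lower and 0 higher than in the control, where 4.75% of all genes tested were lower and 3.69% higher. The wider factors DNMT1, UHRF1 and SUV39H1 are among the 8. With gRNA1, 0 were lower and 1 higher than in the control, where all genes gave 3.58% and 3.49%. With gRNA2, 7 were lower and 0 higher than with gRNA1, where all genes gave 3.1% and 3.12%. The listed genes are protein-coding. Of 14018 protein-coding genes tested, 913 were lower and 535 higher with gRNA2, 685 and 514 with gRNA1, and 575 and 550 between the guides. TRIM28 itself, which also lies on chromosome 19, had 368, 334 and 317 CPM in the gRNA2 libraries, 379, 381 and 389 CPM in the gRNA1 libraries and 447, 406 and 409 CPM in the control libraries. The gRNA2 libraries were all below the control libraries at 0.809-fold (95% interval 0.75 to 0.872, adjusted p = 0.00227), and gRNA1 missed the threshold at 0.911-fold (95% interval 0.845 to 0.983, adjusted p = 0.132). In each group TRIM28 was highest in the library where GC-rich genes stood highest over GC-poor ones, and the part of GC content was not tested. Values of the listed genes are from the main fit alone, and their calls in the alternative and leave-one-out fits are not given here. HDAC1, a deacetylase of NuRD, stood at 0.793-fold (adjusted p = 2.49e-04) with gRNA2 and 0.784-fold (adjusted p = 1.74e-04) of gRNA1. CBX5, which encodes HP1 alpha, stood at 0.909-fold (adjusted p = 0.0174) with gRNA2 and UHRF1, a reader for DNA methylation, at 0.785-fold (adjusted p = 7.48e-04). SETDB1, the H3K9 methyltransferase that TRIM28 recruits, stood at 1.00-fold (adjusted p = 0.978) with gRNA2 and 1.05-fold (adjusted p = 0.393) with gRNA1. PPHLN1, a HUSH complex subunit, was the one higher with gRNA1, at 1.11-fold (adjusted p = 0.0279).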

How the data were processed

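RNA of 9 H1975 libraries was quantified by the authors with Salmon 1.4.0 on hg38, per the submitters' processing notes; the annotation and strand setting are not given in the sources used here. Each deposited table holds, per the file headers, 1 estimated count and 1 TPM value for every transcript, with no further normalization. Of 211939 transcripts 95.7% matched GENCODE 29, and the rest, with 1.26% to 1.33% of reads, were not used. Gene values are the rounded sums of estimated counts, for 56823 genes. In edgeR 4.0.16 (R 4.3.3) filterByExpr kept 19658 genes, TMM scaled the libraries, and quasi-likelihood F tests with Benjamini-Hochberg adjustment (threshold 0.05, two-sided) compared the groups in 1 fit of all 9 libraries; the biological coefficient of variation was 0.051. A gene is called where its adjusted p is under 0.05. Intervals cover 95% and rest on edgeR's estimate of the spread. CPM use TMM-scaled library sizes. Alternatives were DESeq2 1.42.0, other normalizations and filters, a replicate block, transcript length offsets, restricted gene and transcript sets, a GC and length correction and leaving out each library. The procedure was checked on simulated counts with known folds.

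The members and lists were chosen with earlier results of these data known. Blocks follow hg38 bands (p13 up to base 19900000, p12 up to 24200000), and clusters are neighbouring members of 1 block whose starts lie under 500000 bases apart. Genes named are those called in any comparison (28, of a limit of 30), the member with the lowest p in each comparison and the 3 most abundant of each block, those at the read minimum, and members with a known role. ZNF837, ZNF208, ZNF850, ZNF320, ZNF468 and ZNF177 were chosen after their values were seen. Start regions and their coordinates are from RefSeq (GRCh38.p14), with 212 of 240 members matched by symbol. Shared words are 31-base sequences of a gene's transcripts found in another gene on either strand. Sums, searches and figures used Python 3.11.15 (pandas 2.3.3, numpy 2.4.6, matplotlib 3.10.9).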

Additional observations from a re-analysis of the deposited data

Results flagged for a closer look

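For 15 members the effect of gRNA2 differed from that of gRNA1 by the direct test between the 2 guides (edgeR, adjusted p under 0.05), and these are the differences in log2 change, gRNA2 over gRNA1. In q13, ZNF114 stood at -0.51, ZNF776 at -0.16 and ZNF432 at -0.16, lower with gRNA2. Higher with gRNA2 were ZNF419 at 0.48, ZNF284 at 0.35, ZNF181 at 0.33, ZNF773 at 0.32, ZNF581 at 0.28, ZNF543 at 0.24, ZNF83 at 0.24 and ZNF805 at 0.24. ZNF460 stood at 0.23, ZNF578 at 0.21 and ZNF331 at 0.21. In p13, ZNF121 stood at 0.17. Of the 15, only ZNF114, ZNF83, ZNF460 and ZNF419 held in all 10 alternative settings and all 9 leave-one-out fits.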

How the results depend on the processing

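No median log2 change of the members moved by more than the SD of the library medians in any alternative, while counts of called members moved by more than 1.5 times. That bar is wide. Library medians ran from -0.05 to 0.03, and the medians judged were -0.03, 0.0034 and 0.04. A median could shrink towards 0 without counting as moved, and that with gRNA2 changed sign. With gRNA1, 6 members became 3 with a transcript length offset, 2 with protein-coding transcripts alone, 2 of the members that share under 20% of words, 39 with the GC and length correction and 34 with that correction and a replicate block. With gRNA2, 15 became 8 with only the 2 groups compared, 4 with the length offset, 33 with the GC and length correction and 34 with the block added. Between the guides, 15 became 5 with the length offset, 9 with protein-coding transcripts alone, 34 with the GC and length correction and 34 with the block added. The share of all genes called moved too. With gRNA1, with gRNA2 and between the guides it was 7.08%, 8.44% and 6.22% in the main fit. With the length offset it was 2.74%, 2.21% and 2.27%, and with the GC and length correction 14.1%, 16.2% and 13%. Adding the block to that correction gave 13.7%, 15.9% and 12.8%. Protein-coding transcripts alone gave 4.75% with gRNA1 and 5.89% between the guides, and only the 2 groups compared gave 7.04% with gRNA2. The cause of the changed counts was not tested. Leaving out 1 library at a time gave 0 to 9 calls with gRNA1, 5 to 15 with gRNA2 and 6 to 17 between the guides. ZNF530 in gRNA2 over control reversed with protein-coding transcripts alone, to 1.05. The replicate block alone gave 4, 15 and 11 calls, with 6.43%, 8.05% and 5.82% of all genes called. Correlations of same-numbered libraries were -0.161 to 0.207, so the numbers were not taken to pair the libraries. With 3 pairs a lost call under the block is not read as a weaker effect. DESeq2, RLE scaling, no filter on low counts, protein-coding genes alone and a minimum of 450 reads moved no total count by more than 1.5 times, though the gRNA1 split of 1 higher and 5 lower became 2 and 4 by DESeq2 and 3 and 3 with protein-coding genes alone. Depth limits the 80 least abundant members, of which 48.8% with gRNA1 and 41.2% with gRNA2 had a 95% interval of the fold within 0.8 to 1.25.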
